A study of Caenorhabditis elegans with 6 samples.

Results

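Previously reported PRG-1 targets were taken as 4 genes, bath-45, Y17D7B.4, xol-1 and fem-1, of 20222 protein-coding genes in the transcript table. The rule names them by gene symbol and uses no measured value, although the set was proposed with earlier results of these data known. They are represented by 8 annotated transcripts. The series holds small RNA libraries of whole males of the nematode Caenorhabditis elegans, 3 labelled as a prg-1 null mutant and 3 as wild type. All males were kept at 25 °C and taken as adults, 24 h after the middle of the fourth larval stage, with 20 to 30 animals pooled for a genotype. The prg-1 allele, the part of the gene it removes and any further mutation shared by both groups are not stated in the labels.

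PRG-1 is the Piwi-class Argonaute that binds 21U-RNAs, the piRNAs of this species. When a piRNA pairs with a transcript in the germline, RNA-dependent RNA polymerases copy that transcript into 22G-RNAs, short antisense siRNAs that begin with G and are loaded on other Argonautes that silence the gene. 26G-RNAs are a separate class of antisense siRNAs, made by another polymerase pathway. In the tables used here, 22G-RNAs were counted as antisense reads of 21 to 23 nt with a first G, and 26G-RNAs as antisense reads of 26 nt with a first G. Levels are given in CPM, counts per 1000000 22G reads of the genes in the fit after TMM scaling.

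bath-45 encodes a protein with BTB and MATH domains, and genes with BTB and MATH domains can serve as substrate adaptors of CUL-3 ubiquitin ligases. Y17D7B.4 has no described function in the files. xol-1 is the switch that sets male fate when it is active in embryos with a single X chromosome, and it is known as a target of the X-linked piRNA 21ux-1. fem-1 encodes an ankyrin repeat protein that acts with CUL-2 to degrade TRA-1 and so promotes male development.

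The 4 genes lie on 4 chromosomes of the WBcel235 genome. bath-45 (WBGene00009247) is annotated on the plus strand of chromosome II, from 13123020 to 13125189, with 8 exons, 1404 coding bases, a 5′ UTR of 18 bases and a 3′ UTR of 400 bases. Y17D7B.4 (WBGene00012452) is on the minus strand of chromosome V, from 18776238 to 18776687, as a single exon of 450 bases without an annotated UTR. The authors' transcript set gives that gene a wider span, from 18776198 to 18780216, and a spliced length of 698 bases for the isoform that holds its reads. xol-1 (WBGene00006962) is on the plus strand of chromosome X, from 8041313 to 8044409, with 7 exons in both coding isoforms. Its isoform with the most reads, C18A11.5a, has 5 exons and no coding sequence in that annotation. fem-1 (WBGene00001411) is on the minus strand of chromosome IV, from 5533140 to 5537962, with 11 exons. No other annotated gene of any class overlaps the annotated span of any of the 4 on either strand. The wider span of Y17D7B.4 in the authors' transcript set was not part of this check. Within 50 kb of fem-1 there are 197 annotated piRNA loci, against 1 near xol-1 and 0 near bath-45 and Y17D7B.4. Counts near other genes are not given here, so these numbers are not read as a trait of any of the 4.

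Genome-aligned reads numbered 1133888 to 2205341 in the prg-1 null libraries and 973971 to 1799846 in the wild type libraries, and 22G reads on protein-coding genes numbered 176078 to 378138 and 70387 to 309541, with the third wild type library the shallowest. 22G reads on prg-1 itself numbered 7, 15 and 9 in prg-1 null males against 143, 441 and 88 in wild type males. Sense reads on the 31 genes of the major sperm protein family, markers of sperm, summed to 189 to 246 per 1000000 genome-aligned reads in prg-1 null males and to 785 to 2144 in wild type males, where the reference leaves out the sense reads on rbd-1 and daf-15, a pair of features that held 13.2% to 20.4% and 9.72% to 28.9% of the libraries. Of these 31 genes 28 had a sense read, and msp-58, msp-74 and msp-79 were at 0. Sense reads on 14 oocyte, embryo and hermaphrodite genes summed to 34.6 to 60.9 in prg-1 null males and 23.4 to 124 in wild type males, 13 with a read and vit-5 at 0. Markers of muscle (4 genes) ran from 37.7 to 70.5 in prg-1 null males and from 35.7 to 61.2 in wild type males, and markers of intestine (4 genes) from 0 to 5.53 and from 0.615 to 13.0, each marker with a read. These marker reads are short sense fragments in small RNA libraries, a weak measure of the genes' mRNA. The sperm reads were lower in every prg-1 null library, and their part in the results that follow was not tested. How many other genes were lower in this way was not counted. In whole animals fewer cells of a type and less RNA per cell cannot be told apart, and these reads measure neither directly.

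bath-45 lost nearly all of its 22G-RNAs in prg-1 null males, while Y17D7B.4, which carried about as many in wild type males, kept them. xol-1 and fem-1 carried few 22G-RNAs in either genotype. Of the 4 genes, bath-45 and Y17D7B.4 had enough reads for the fit over 2879 genes, and of these 2 bath-45 was called lower and none was called higher. Over all genes in that fit 32.6% were called lower and 12.4% higher (edgeR quasi-likelihood test, Benjamini-Hochberg threshold 0.05).

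**Figure D1:**
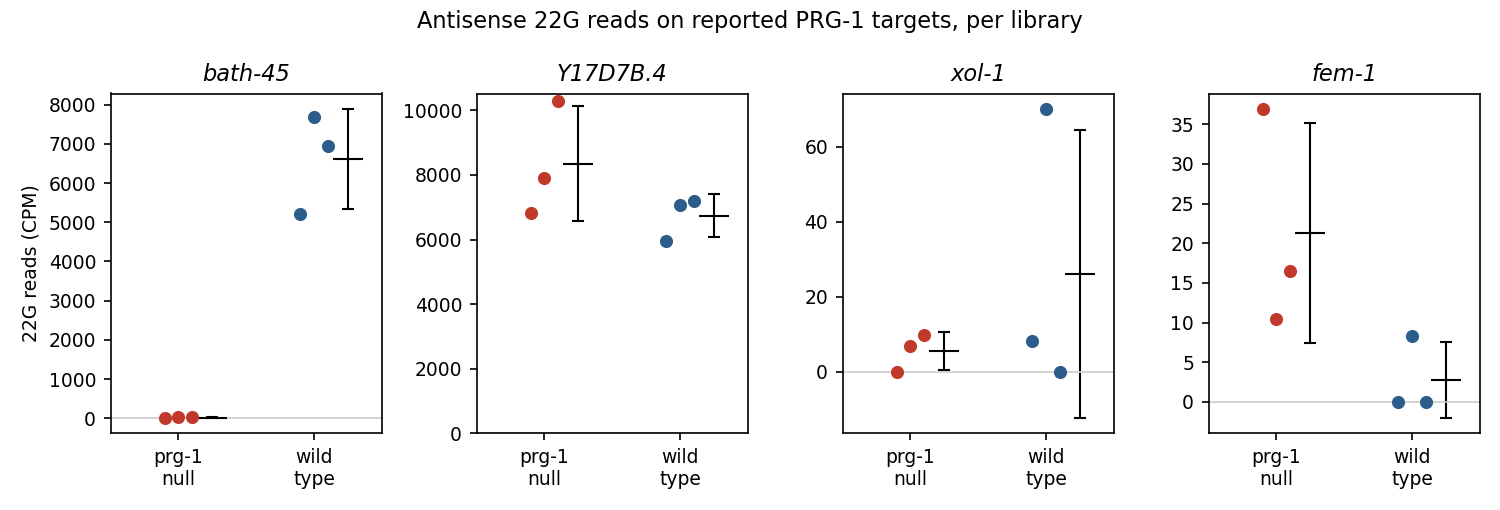
22G reads in CPM for each of the 3 prg-1 null libraries (red) and 3 wild type libraries (blue), 1 panel per gene with its own vertical scale; the black mark is the mean and the bar the SD. bath-45 drops to 12.5 to 23.4 CPM in prg-1 null males, Y17D7B.4 overlaps between genotypes, and xol-1 and fem-1 reach at most 70.1 and 36.9 CPM in any library.

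bath-45 had 2, 5 and 7 22G reads in the prg-1 null libraries and 559, 1802 and 497 in the wild type libraries. Each prg-1 null library lay far below each wild type library, and 34.4% of the 2879 genes were likewise lower in CPM without overlap. In CPM the levels were 12.5, 18.8 and 23.4 in prg-1 null males against 5210, 7690 and 6956 in wild type males, or 18.2 ± 5.48 and 6619 ± 1274 CPM (SD, n = 3 each). The log2 fold change was -8.39 ± 0.43 (SE, edgeR adjusted p = 2.9e-12), the second smallest p of the 2879 genes. In size it ranked 106th among the falls. By level bath-45 stood 16th of the 2879 genes in wild type males and 2227th in prg-1 null males. Of the 22G reads of all protein-coding genes, each by its richest isoform, it took 0.589% in wild type males and 0.00168% in prg-1 null males.

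Y17D7B.4 had 1098, 2101 and 3090 22G reads in the prg-1 null libraries and 640, 1654 and 515 in the wild type libraries. In CPM these were 6836, 7909 and 10308 in prg-1 null males against 5965, 7058 and 7208 in wild type males. The groups overlapped, since the lowest prg-1 null library lay below 2 wild type libraries. The means were 8351 ± 1778 and 6744 ± 678 CPM (SD, n = 3 each), with a log2 fold change of 0.31 ± 0.26 (SE, edgeR adjusted p = 0.37). Without the third prg-1 null library the log2 fold change was -0.02 (edgeR adjusted p = 0.963). The gene ranked 14th by level in prg-1 null males and 11th in wild type males. Per 1000 bases of transcript its level was 11964 CPM in prg-1 null males and 9662 CPM in wild type males, and that of bath-45 was 12.9 and 4704 CPM. These use lengths from the authors' transcript set, 698 bases for Y17D7B.4 and 1407 bases for bath-45. The annotation gives spliced lengths of 450 and 1825 bases.

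Whether Y17D7B.4 was called higher depended on the reference. Per 1000000 genome-aligned reads without those on rbd-1 and daf-15, it stood at 1216, 1453 and 1654 in prg-1 null males and 594, 1018 and 743 in wild type males. On that scale the groups did not overlap, as was so in the same direction for 30.6% of the 2879 genes. The means were 1441 ± 219 and 785 ± 215 (SD, n = 3 each), and an exact permutation test (two-sided) gave p = 0.1, the lowest value possible with 3 libraries against 3. Fitted with that scaling, which moves the median of all tested genes up by 0.56 on the log2 scale, its log2 fold change was 0.88 ± 0.34 (SE, edgeR adjusted p = 0.0266), and 19.8% of all tested genes were called higher and 29.5% lower. The log2 fold change of bath-45 with the same scaling was -7.86 ± 0.57 (SE, edgeR adjusted p = 7.9e-25).

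**Figure D2:**
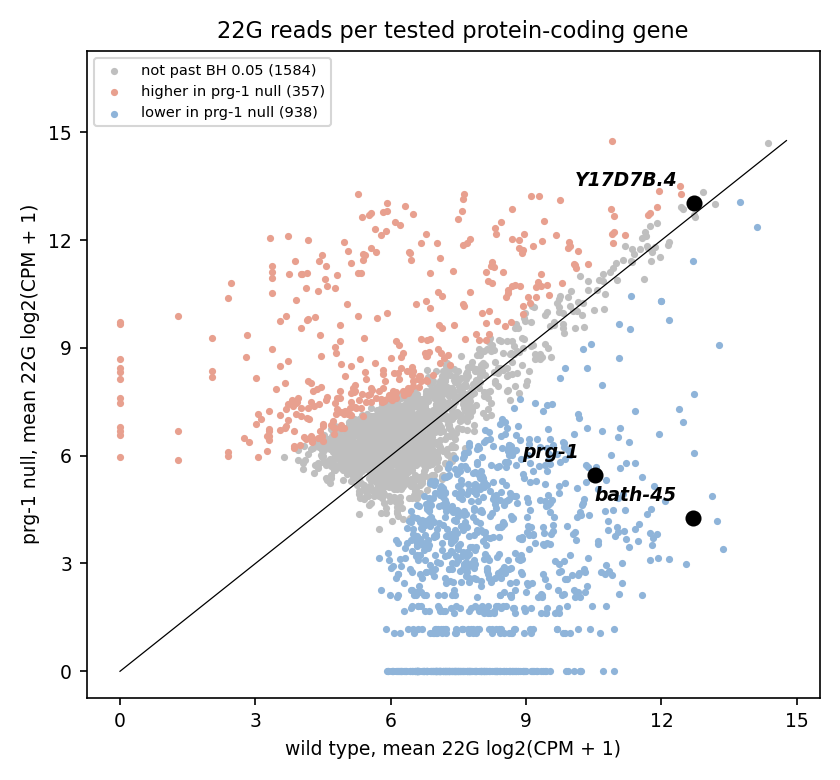
Mean 22G level of each of the 2879 tested genes, log2(CPM + 1), in prg-1 null males (vertical) against wild type males (horizontal), coloured by the edgeR call at an adjusted p of 0.05; the line marks equal levels. Y17D7B.4 lies near the line at 8351 and 6744 CPM, and bath-45, at 18.2 and 6619 CPM, lies far below it; prg-1 is marked as well, at 43.4 and 1482 CPM.

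A ratio of both genes within a library does not depend on how libraries are scaled. Y17D7B.4 had 549, 420 and 441 times as many 22G reads as bath-45 in the prg-1 null libraries and 1.14, 0.918 and 1.04 times as many in the wild type libraries. In wild type males the 2 genes thus carried nearly equal numbers of 22G reads in every library. With 0.5 added to each count, the log2 ratio was 8.68 ± 0.10 in prg-1 null males and 0.04 ± 0.16 in wild type males (SD, n = 3 each). The difference of 8.64 had an exact two-sided permutation p of 0.1, the lowest possible.

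**Figure D3:**
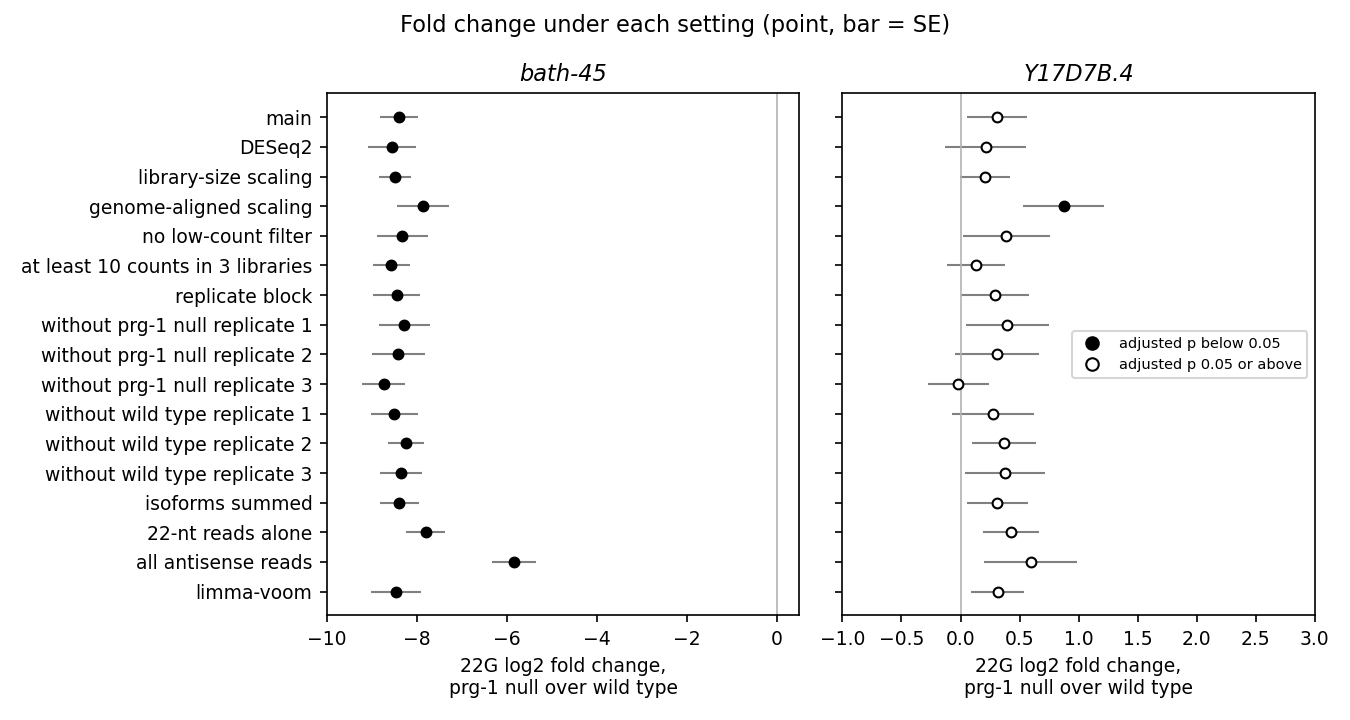
22G log2 fold change, prg-1 null over wild type, of bath-45 (left) and Y17D7B.4 (right) under the setting reported here (main) and 16 others, with horizontal bars for the SE and filled points where the adjusted p was below 0.05. The values for bath-45 run from -8.74 to -5.84 and are all filled; those for Y17D7B.4 run from -0.02 to 0.88, and only that with genome-aligned scaling is filled.

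The few antisense reads left on bath-45 in prg-1 null males were of another kind. 22G reads made up 8%, 16.7% and 20% of its antisense reads in the prg-1 null libraries, against 76.9%, 79% and 78% in the wild type libraries. The groups did not overlap, at 14.9% ± 6.19 and 78% ± 1.04 (SD, n = 3 each; exact two-sided permutation p = 0.1, the smallest possible, and 0.157 adjusted over the 11 shares compared). Over all protein-coding genes together this share was 48%, 51.7% and 55.2% in the prg-1 null libraries. It was 36.8%, 52.3% and 31.8% in the wild type libraries. How many single genes separate in this way was not counted. Of the 90 antisense reads on bath-45 in the 3 prg-1 null libraries, 64 were 22 nt long and began with U, written T in the table, or 71.1% (exact binomial 95% interval 60.6 to 80.2%). Of 3646 such antisense reads in the wild type libraries, 19 were of this kind, or 0.521% (interval 0.314 to 0.813%). These intervals treat each summed read as independent and leave out the spread between libraries. The reads carry no molecular identifiers, so copies of the same molecule could not be told from separate molecules.

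The 22-nt reads with a first U numbered 18, 23 and 23 in the prg-1 null libraries and 7, 10 and 2 in the wild type libraries. Per 1000000 genome-aligned reads without those on rbd-1 and daf-15 they stood at 19.9, 15.9 and 12.3 in prg-1 null males and at 6.49, 6.15 and 2.89 in wild type males (16.1 ± 3.81 and 5.18 ± 1.99, SD, n = 3 each; exact two-sided permutation p = 0.1, the smallest possible). The groups did not overlap, as was so in the same direction for 22.7% of the 22 genes with enough such reads. In a fit over these 22 genes, of which 4.55% were called higher and 13.6% lower, the difference did not pass, with a log2 fold change of 0.89 ± 0.50 (SE, edgeR adjusted p = 0.323). bath-45 ranked 16th by these reads among 2140 genes with at least 1. With any first base, reads of 21 to 23 nt made up 88% to 100% of its antisense reads in prg-1 null males and 90.8% to 93.5% in wild type males. Within that range both the first base and the length differed. Reads of 22 nt with any first base were 80%, 96.7% and 80% of the antisense reads in the prg-1 null libraries and 58.6%, 59.1% and 51.5% in the wild type libraries, and 21-nt reads were 6 of 90 in prg-1 null males and 772 of 3646 in wild type males. This read class was chosen after its counts were seen.

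**Figure D4:**
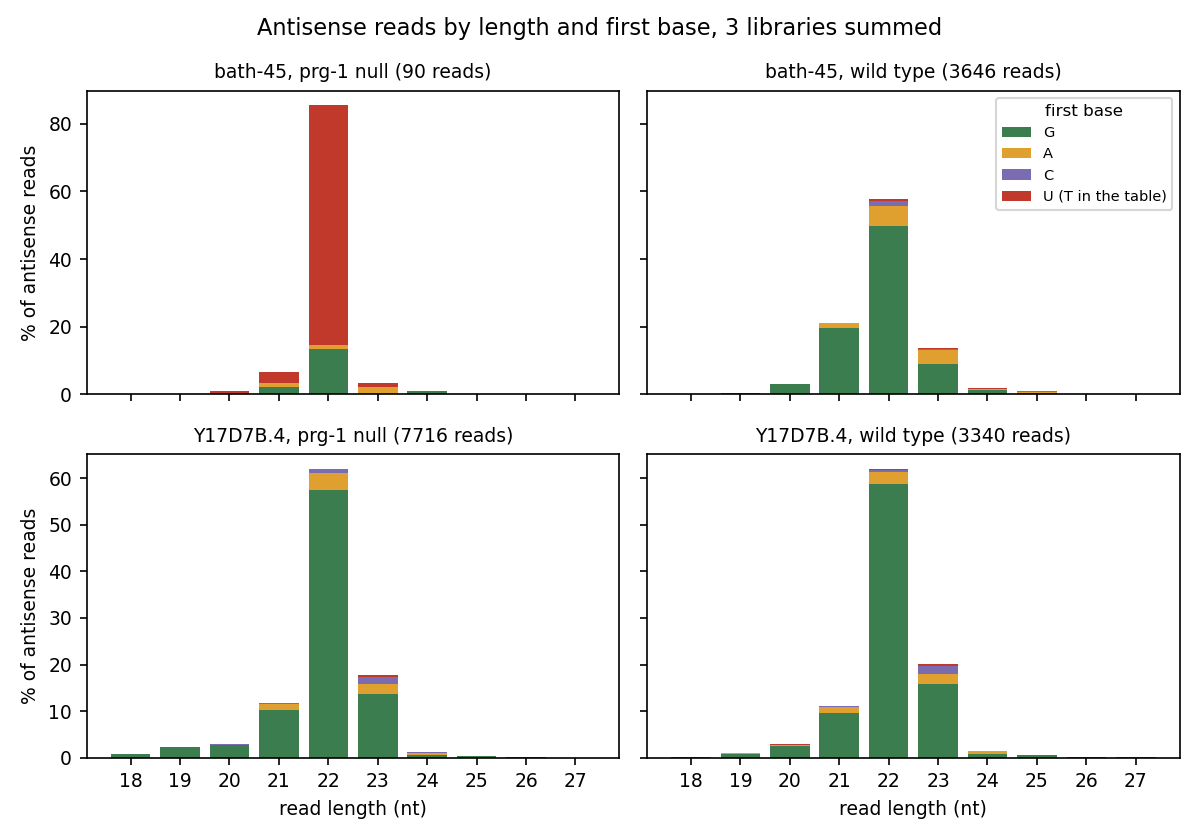
Antisense reads on bath-45 (top) and Y17D7B.4 (bottom) by read length, as a percentage of the gene's antisense reads in 3 summed libraries, coloured by first base, for prg-1 null (left) and wild type (right). Reads of 22 nt with a first U make up 71.1% of the 90 reads on bath-45 in prg-1 null males and 0.521% of 3646 reads in wild type males, while the profile of Y17D7B.4 is led by 22-nt reads with a first G in both.

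Antisense reads on Y17D7B.4 had nearly the same make-up in both genotypes. 22G reads made up 80.7%, 80.6% and 82.5% of them in the prg-1 null libraries and 83.8%, 83.5% and 86.4% in the wild type libraries. Each prg-1 null library lay below each wild type library, with a difference between means of -3.34 percentage points (81.2% ± 1.07 and 84.6% ± 1.60, SD, n = 3 each; exact two-sided permutation p = 0.1, the smallest possible). Over all protein-coding genes together the 22G share overlapped, at 48% to 55.2% in prg-1 null males and 31.8% to 52.3% in wild type males. How many single genes separate in this way was not counted. On Y17D7B.4, shorter reads of 18 to 20 nt with a first G took 5.85% ± 0.779 in prg-1 null males and 3.4% ± 1.37 in wild type males (SD, n = 3 each; exact p = 0.1, smallest possible). The share of 23-nt reads among its 22G reads was 17% ± 0.621 in prg-1 null males and 18.9% ± 0.318 in wild type males (SD, n = 3 each; exact p = 0.1, smallest possible). Over all protein-coding genes together, 23-nt reads were 16.5%, 15.8% and 15.3% of 22G reads in the prg-1 null libraries. They were 19.2%, 17% and 15.9% in the wild type libraries, so the groups overlapped. Each p of 0.1 on these shares of Y17D7B.4 was 0.157 when adjusted over the 11 shares compared. The other Y17D7B.4 shares compared had exact permutation p of 0.3 (21-nt), 0.4 (first G at 21 to 23 nt) and 0.4 (22-nt, first U).

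The 2 abundant targets also differed from each other in length within wild type males, where both had many reads. On bath-45, 21-nt reads were 21.6%, 24.6% and 30.6% of the 22G reads in the wild type libraries. On Y17D7B.4 they were 9.38%, 12.8% and 9.32% in the same libraries, below bath-45 in each. Over all protein-coding genes the share was 18%, 19.3% and 20.7%, which lay between the 2 genes in every wild type library. This comparison is a description and was not tested. In prg-1 null males Y17D7B.4 had 11.4%, 13.3% and 12.7%, against 21.8% to 23.7% over all genes, and bath-45 had too few reads to compare.

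xol-1 was measured by few reads that came mostly from 1 library. Its 22G reads numbered 0, 2 and 3 in the prg-1 null libraries and 1, 17 and 0 in the wild type libraries on the richest isoform. With both isoforms that held reads summed they were 0, 2 and 3 against 1, 23 and 1. The groups overlapped, and the second wild type library held nearly all wild type reads. Without a filter on low counts, in a fit over 12123 genes of which 2.78% were called higher and 9.9% lower, its log2 fold change was -2.16 ± 1.45 (SE, edgeR adjusted p = 0.41), and -2.64 ± 1.30 with isoforms summed (edgeR adjusted p = 0.227). Without the second wild type library it was 0.48 (edgeR adjusted p = 0.924). Per 22G read on all protein-coding genes, the pooled ratio of prg-1 null to wild type was 0.117 with isoforms summed (95% counting interval 0.035 to 0.311), and 0.547 without the second wild type library (0.0895 to 5.74). Counting intervals treat each read as independent and leave out the spread between libraries.

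fem-1 had 7, 3 and 5 22G reads in the prg-1 null libraries and 0, 2 and 0 in the wild type libraries. Its CPM values were 36.9, 10.4 and 16.5 in prg-1 null males against 0, 8.25 and 0 in wild type males. Each prg-1 null library was above each wild type library, a pattern shown in the same direction by 20.7% of the 2879 genes in the main fit, in which fem-1 itself was not included. The difference did not pass without a filter on low counts, with a log2 fold change of 2.33 ± 1.79 (SE, edgeR adjusted p = 0.454). The pooled ratio of prg-1 null to wild type, from 15 and 2 reads, was 4.38 with a 95% counting interval of 1.02 to 39.5, which again leaves out the spread between libraries. Without the first prg-1 null library the ratio was 2.95 (0.589 to 28.5), and without the second wild type library no wild type read was left, with a lower bound of the interval at 0.785 and a fitted log2 fold change of 5.12 (edgeR adjusted p = 0.348).

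In wild type males the order of the 22G level per 1000 bases of transcript was Y17D7B.4 at 9662 CPM, bath-45 at 4704 CPM, xol-1 at 15.9 CPM and fem-1 at 1.16 CPM. In prg-1 null males it was Y17D7B.4 at 11964 CPM, bath-45 at 12.9 CPM, fem-1 at 8.99 CPM and xol-1 at 3.43 CPM. CPM of xol-1 and fem-1 come from the fit without a filter. Their lengths, also from the authors' transcript set, were 1638 and 2369 bases. The wild type libraries of xol-1 and fem-1 overlapped in CPM, as did the prg-1 null libraries of bath-45 and fem-1, so these neighbours were not separated beyond their spread.

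26G reads were rare on all 4 genes. bath-45 and xol-1 had 0 in every library, which allows up to 38.2 per 1000000 26G reads in prg-1 null males and 36.5 in wild type males (3 counts of the group's total). fem-1 had 1 read, in a prg-1 null library. Y17D7B.4 had 4, 2 and 5 in prg-1 null males and 1, 6 and 0 in wild type males, with overlap, and a log2 fold change of 1.00 ± 1.47 without a filter (SE, edgeR adjusted p = 0.749), in a fit that called 0.179% of 4457 genes higher and 0.0897% lower. None of the 4 passed the filter of the 26G fit, in which 1.71% of 643 genes were called higher and 0.467% lower.

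Sense reads, short fragments of the same strand as the mRNA, were too few on all 4 genes to compare. bath-45 had 0, 0 and 0 in the prg-1 null libraries and 3, 1 and 1 in the wild type libraries. Y17D7B.4 had 3, 2 and 1 against 4, 8 and 0, xol-1 had 6, 2 and 0 against 1, 1 and 0, and fem-1 had 0, 2 and 3 against 1, 0 and 0. The groups overlapped for Y17D7B.4, xol-1 and fem-1. None of the 4 passed the filter of the sense fit, in which 11.6% of 713 genes were called higher and 13.9% lower. Without that filter none was called, with edgeR adjusted p from 0.592 to 0.779, 0 of the 4 at an unadjusted p under 0.05, and 0.415% of 13737 genes called higher and 0.706% lower. These counts do not measure mRNA.

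The genes beside bath-45 did not share its level. gfm-1, a mitochondrial translation elongation factor gene that ends 1004 bases before bath-45, had 2, 7 and 3 22G reads in prg-1 null males and 8, 34 and 8 in wild type males. It fell, with a log2 fold change of -2.72 ± 0.76 (SE, edgeR adjusted p = 0.0045), at 16.3 and 111 CPM. F29C12.6, which starts 4713 bases beyond bath-45, had 7, 55 and 70 reads in prg-1 null males and 0, 0 and 0 in wild type males. It was not in the main fit, and without a filter on low counts it rose (edgeR adjusted p = 3.9e-07). Beside Y17D7B.4, clec-257 had 0 reads in all 6 libraries, and Y17D7B.10 had 0, 15 and 17 in prg-1 null males and 0, 1 and 2 in wild type males, which did not pass (edgeR adjusted p = 0.367 without a filter).

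Among 2876 genes with a mean of at least 10 CPM, those with 22G levels most like bath-45 over the 6 libraries were timm-17B.2, a mitochondrial import gene, ZC123.1 and W06A11.4, with Pearson's r of 0.999, 0.998 and 0.998 on log2(CPM + 1). timm-17B.2 stood at 108 ± 18.3 CPM in prg-1 null males and 2160 ± 186 in wild type males (SD, n = 3 each), ZC123.1 at 0 and 595 ± 138 CPM, and W06A11.4 at 0 and 451 ± 101 CPM. Such likeness is mostly the difference between genotypes, and 709 genes had an r of at least 0.9 with bath-45. For Y17D7B.4 there were 17. The closest were mdt-26, a Mediator subunit gene, W04B5.2 and nfx-1, a gene of the NFX1 zinc finger family, with r of 0.986, 0.961 and 0.953. W04B5.2 was abundant as well, at 3463 ± 664 CPM in prg-1 null males and 2946 ± 456 in wild type males, while mdt-26 and nfx-1 stood at 78.9 ± 50.5 against 36.1 ± 7.29 CPM and 148 ± 39.3 against 114 ± 28.4 CPM (SD, n = 3 each). None of these 3 was called (edgeR adjusted p from 0.237 to 0.613).

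Of the other tested genes with a BTB and MATH or a MATH domain, most fell. Of 79 such genes named bath or math, 17 had enough 22G reads, and of the 16 other than bath-45, 11 fell, 2 rose and 3 did not pass, with a median log2 fold change of -5.74 against -0.11 over all 2879 genes, of which 32.6% fell and 12.4% rose. bath-7 fell the most, at 1.11 ± 1.93 CPM in prg-1 null males and 1003 ± 166 CPM in wild type males (SD, n = 3 each; log2 fold change -8.96 ± 0.73, edgeR adjusted p = 8.0e-10). math-31 rose the most, with 48, 85 and 66 reads in prg-1 null males and 0, 0 and 0 in wild type males (edgeR adjusted p = 1.6e-06). 25 of the 79 genes had no 22G read in any library, and counts over the genes that passed the filter do not describe the rest.

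Few genes that act with xol-1 and fem-1 in sex determination had enough 22G reads to test. Of 32 names 31 were found and 10 tested, of which 2 fell, 1 rose and 7 did not pass, with a median log2 fold change of -0.44, while of all 2879 genes 32.6% fell, 12.4% rose and 1584 did not pass. The splicing helicase gene mog-4 fell the most, at 21.5 ± 2.51 CPM in prg-1 null males and 228 ± 30.3 CPM in wild type males (edgeR adjusted p = 8.2e-05). mog-5, related to mog-4, rose, at 109 ± 45.5 CPM in prg-1 null males and 25.5 ± 23.6 CPM in wild type males (edgeR adjusted p = 0.048), a call lost when any 1 of the 6 libraries was left out (edgeR adjusted p from 0.0566 to 0.200). In the list of piRNA silencing genes, from piRNA biogenesis to the Argonautes and polymerases of the 22G pathway, 36 of 38 names were found and 21 tested, of which 6 fell, 0 rose and 15 did not pass, with a median log2 fold change of -0.27. The share of its tested genes that fell lay near the 32.6% over all genes. prg-1 fell the most, at 43.4 ± 13.2 CPM in prg-1 null males and 1482 ± 350 CPM in wild type males (SD, n = 3 each; log2 fold change -5.09 ± 0.47, edgeR adjusted p = 5.8e-09). With scaling to genome-aligned reads, 2 sex determination genes rose and 2 fell, and 1 piRNA silencing gene rose and 5 fell. On that scale 19.8% of all 2879 genes were called higher and 29.5% lower.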

How the data were processed

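Per the labels' protocols, acid pyrophosphatase made RNAs with a 5′ triphosphate clonable. The submitters' processing notes name FastQC 0.12.0, cutadapt 3.7 and the build WBcel235; no source used here names the aligner or its rule for reads with several matches. The authors deposited raw read counts per transcript and genome bin on each strand, all whole numbers; the deposited counts were handled like expected counts, rounded first, which changed none. A further deposited column, another form of the values, splits those reads by length and first base. For each read class a gene stood as its richest isoform. The test was edgeR 4.0.16 (R 4.3.3, quasi-likelihood), filtered by filterByExpr and scaled by TMM, genotype being the sole term. Adjusted p-values are Benjamini-Hochberg over all protein-coding genes of a fit. The SE beside an edgeR fold change was derived from its test. It is the absolute log2 fold change over the square root of the quasi-likelihood F statistic, and not a separate estimate. DESeq2 1.42.0 and limma-voom (limma 3.58.1) were alternatives, with SE from their own models. Single values used exact permutation tests (scipy 1.17.1). On simulated counts for this 22G comparison, of 2850 genes run, the fit recovered 95 of 95 genes changed by 4 and 55 of 80 changed by 2 on the log2 scale, with 6 false calls. The 95 and 80 are changed genes that passed the filter, and changed genes that did not pass are left out. Planted changes went up and down in equal number, with the same dispersion for all genes. In the data 32.6% of tested genes were called lower and 12.4% higher. The simulation therefore does not bear on the choice of scaling, on which the call of Y17D7B.4 depended. Coordinates come from Ensembl release 115 (WBcel235).

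Nothing says that the libraries came from separate cultures, so p-values measure the spread between libraries only. The set of 4 genes and the lists were chosen with earlier results of these data known. The text names the 4 genes, prg-1, the 3 genes most correlated with each of bath-45 and Y17D7B.4, the largest significant rise and fall in each list, and the nearest coding gene on each side of bath-45 and Y17D7B.4. tofu-3, mut-8 and mog-6 were not matched. A search for piRNA matches was planned and not run, since no sequence was used here.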

Additional observations from a re-analysis of the deposited data

How the results depend on the processing

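bath-45 kept its call in all 16 alternatives for its 22G reads (edgeR, DESeq2 or limma-voom adjusted p at most 3.8e-06), with log2 fold changes from -8.74 to -8.24 when 1 library was left out and -5.84 with all antisense reads. Y17D7B.4 became a call with genome-aligned scaling (0.876, edgeR adjusted p = 0.0266), and ran from -0.02 to 0.398 when 1 library was left out. Without a filter on low counts xol-1 ran from -2.72 to 0.483 and fem-1 from 1.76 to 5.12 over the libraries left out, and neither was called in its 13 alternatives. The share of 22G reads on bath-45 differed by -65.6 to -59.6 percentage points and that on Y17D7B.4 by -3.95 to -2.42 without 1 library; with any first base at 21 to 23 nt the difference on bath-45 was 3.07 points. The ratio of Y17D7B.4 to bath-45 differed by 8.56 to 8.72 on the log2 scale without 1 library. W04B5.2 ran from -0.075 to 0.341 when 1 library was left out, below 0 without prg-1 null library 3, and was not called. nfx-1 turned to -0.011 with 22-nt reads alone, without a call. With all antisense reads nfx-1 was called higher, at 1.475 (edgeR adjusted p = 0.0207).

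22G calls higher numbered 357, and 569 with genome-aligned scaling (288 to 401 without 1 library); calls lower ran from 785 to 1204 without 1 library. Sense calls higher numbered 83, and 51 with library-size scaling (70 to 102 without 1 library), and sense calls lower 99 (62 to 132). 26G calls higher numbered 11, with 3 under genome-aligned scaling, 7 with a replicate block and 7 to 19 without 1 library. 26G calls lower numbered 3, with 0 under genome-aligned scaling (22 genes lower at an unadjusted p under 0.05), 0 with a replicate block (20 genes) and 5 with at least 10 counts in 3 libraries (1 to 9 without 1 library). In the 26G data DESeq2 called 3 lower. The cause of these changes was not tested.

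Replicate numbers are shared by both genotypes, but deviations of libraries with the same number correlated at -0.0305, 0.0419 and 0.0023, which showed no pairing by number. Whether libraries with the same number were prepared together is not stated in the labels. With a replicate block bath-45 had a log2 fold change of -8.45 and Y17D7B.4 of 0.29, with 306 genes called higher and 890 lower. Depth limits xol-1 and fem-1, with 23 and 17 22G reads in all on the isoform used, and all 26G and sense counts of the 4 genes. The search for piRNA matches and its alternatives were not run.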
